A study of Mus musculus with 12 samples.

Results

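After 5 h in tunicamycin, the level of 717 mature mouse miRNAs in NIH3T3 cells was compared with the level in untreated cells. The members were every mature mouse probe set, that is every one whose name starts with the mouse prefix, and they made up 717 of the 1412 mouse probe sets of the series. The other 690 hairpin probe sets read precursors, and 5 with an older annotation name were not used here. NIH3T3 is an established line of mouse embryonic fibroblasts. Asynchronously proliferating cells were grown with serum and given 2 μg per ml tunicamycin for 2, 5 or 10 h, and the 0 h cells received none. Each of the 4 time points had 3 arrays, so that the comparison rests on 3 arrays at 5 h and 3 at 0 h among 12. No untreated arrays at 5 h were part of the series, so the effect of tunicamycin and that of time in culture or handling cannot be told apart. Nothing in the labels ties the 3 arrays of a time to separate cultures. The p-values therefore describe the spread from array to array, part or all of which may be technical.

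Tunicamycin blocks N-linked glycosylation, so that unfolded proteins gather in the endoplasmic reticulum (ER) and set off the unfolded protein response (UPR) through the sensors PERK, IRE1 and ATF6. A miRNA is cut from a hairpin precursor as a duplex. One strand, here called the guide, is usually loaded into Argonaute, and the other, marked with an asterisk as the star strand, is usually lost sooner. The seed, bases 2 to 8 of the loaded strand, pairs with target mRNAs. A change in a mature level within hours can follow from transcription, from cutting or from decay, and arrays of total RNA do not separate these.

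The sequences below belong to the miRNAs on which the results turn, written 5′ to 3′ with the seed in capitals. They were taken from RefSeq (GRCm38.p6), in which 42 of the 60 miRNAs that passed the test were matched by name. The first set shows the epithelial miRNAs that fell. MiR-200b and miR-200c share a seed, and miR-200a differs from miR-200b in the seed by U4C, counted from the 5′ end of each miRNA.
miR-205: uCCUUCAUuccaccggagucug
miR-200c: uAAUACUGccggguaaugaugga
miR-200b: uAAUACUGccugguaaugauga
miR-200a: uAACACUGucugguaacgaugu
miR-203: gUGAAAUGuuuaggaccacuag

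The next set shows 2 star strands that rose beside their guides, whose levels did not pass the test. The guides have 1 seed, and the star strands differ in theirs by G3A, from miR-27a* to miR-27b*.
miR-27a*: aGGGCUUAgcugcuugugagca
miR-27b*: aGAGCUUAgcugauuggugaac
miR-27a: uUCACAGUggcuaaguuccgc
miR-27b: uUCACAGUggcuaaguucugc

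The last set shows miR-195 and miR-497, which were higher, with miR-15a, which has their seed and did not pass. MiR-503, whose seed differs from that of miR-195 by G8A, from miR-503 to miR-195, was lower. MiR-708 and miR-28 share a seed and moved in opposite directions, and miR-1946b is one of the pair with the largest rises.
miR-497: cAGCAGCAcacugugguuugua
miR-195: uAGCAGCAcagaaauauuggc
miR-15a: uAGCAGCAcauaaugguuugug
miR-503: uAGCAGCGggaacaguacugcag
miR-708: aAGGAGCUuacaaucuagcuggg
miR-28: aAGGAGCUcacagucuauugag
miR-1946b: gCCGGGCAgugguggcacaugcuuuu

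Levels are log2 RMA values, the background-corrected and normalized brightness of a probe set, and a difference of 1 is a doubling. At a limma adjusted p under 0.05 over all 717, 31 miRNAs (4.32%) were higher and 29 (4.04%) were lower at 5 h. Most of these differences were small. A fitted difference of at least 2-fold was reached by 2 of the 31 and by 6 of the 29, and the median difference over all 717 was 0.03. In 154 miRNAs (21.5%) the arrays of the 2 time points did not overlap, 86 of them being higher and 68 lower at 5 h. An array's background limit, its most frequent value plus 3 times the spread below it, lay between 2.95 and 3.21. Of the miRNAs that were higher, 30 were above it on every array of both times, and so were 21 of those that were lower.

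The counts depended on single arrays. Without the first 5 h array 18 were higher and 14 lower, without the second 5 h array 19 and 11, and without the first 0 h array 20 and 13. Shifting the arrays to 1 median left 11 and 11. MiR-1946a, miR-1946b, miR-27a* and miR-1224 were higher, and miR-205, miR-200c, miR-203 and miR-10b lower, in each of 24 alternatives, or for miR-203 in each of the 22 that kept dim miRNAs.

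**Figure D1:**
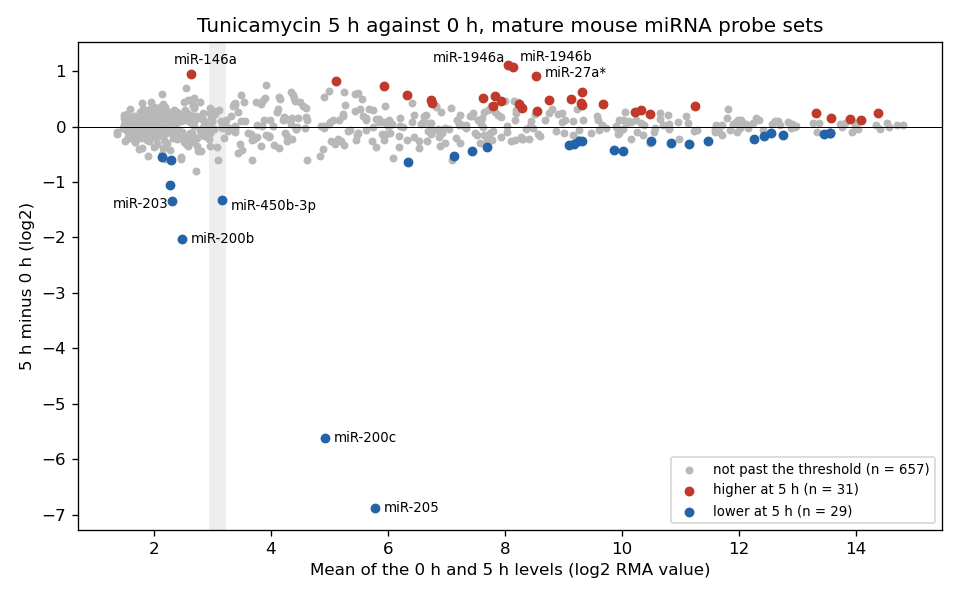
Difference between 5 h and 0 h (log2, vertical axis) against the mean of the levels at both times (log2 RMA value, horizontal axis) for the 717 mature miRNAs, with the 31 that were higher in red, the 29 that were lower in blue, and the range of the background limits, 2.95 to 3.21, as a grey band. MiR-205 and miR-200c lie far below all other points.

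The largest falls were those of miRNAs known from epithelial cells. Of 7 epithelial miRNAs examined, 5 were lower at 5 h against 4.04% of all miRNAs and none was higher, but 2 of the 5 were below the background limit on every array of both times. With miRNAs kept only if above the limit on at least 3 arrays, 2 were lower, miR-205 and miR-200c. The median difference of the list, −1.35 against 0.03 over all, is that of miR-203, which lay below the limit. MiR-205, which maintains epithelial identity, had the largest fall of all. Its level was 9.30, 9.16 and 9.18 on the 0 h arrays, 5.73, 5.06 and 5.59 after 2 h, and 2.09, 2.47 and 2.45 at 5 h. The 10 h arrays gave 1.94, 2.10 and 2.11. Each 0 h array was thus well above background and each 5 h array below it. The fitted difference between 5 h and 0 h was −6.88 (SE 0.22, limma adjusted p = 6.61e-12), which with the background limit in place of the 5 h level is a fall of at least 69.8-fold. Between 2 h and 5 h the fitted level dropped by 3.12 (SE 0.22, limma adjusted p = 2.95e-07), a fall of at least 5.18-fold, so that the level was intermediate at 2 h and at background at 5 h.

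MiR-200c, which with its family represses the transcription factors ZEB1 and ZEB2, gave the same course. Its level was 7.70, 7.65 and 7.86 at 0 h, 4.06, 4.30 and 4.54 after 2 h, and 2.32, 1.88 and 2.17 at 5 h. The 5 h arrays were all below the limit and the groups did not overlap. The difference from 0 h was −5.62 (SE 0.26, limma adjusted p = 5.50e-10), a fall of at least 25.1-fold, and from 2 h it was −2.18 (SE 0.26, limma adjusted p = 3.18e-05), a fall of at least 2.32-fold.

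The remaining members of the list were dim. MiR-200b, which has the seed of miR-200c, was at 3.65, 2.81 and 4.01 at 0 h and at 1.64, 1.24 and 1.51 at 5 h. It was above the limit on 2 of the 3 arrays at 0 h and on none at 5 h, and fell by at least 1.32-fold (difference −2.03, SE 0.24, limma adjusted p = 4.81e-05). MiR-203, an epidermal miRNA, went from 3.06, 2.99 and 2.88 to 1.50, 1.77 and 1.63 (difference −1.35, SE 0.16, limma adjusted p = 4.17e-05), and miR-200a from 2.69, 2.93 and 2.77 to 2.16, 1.46 and 1.62 (difference −1.05, SE 0.22, limma adjusted p = 0.00901). Both were below the limit at both times, so no fold is given. Without the second 5 h array miR-200a did not pass (limma adjusted p = 0.0528). MiR-141 (−0.27, limma adjusted p = 0.292) and miR-429 (+0.18, limma adjusted p = 0.593), cut from the transcripts of miR-200c and of miR-200b and miR-200a, were below the limit on every array of both times and did not pass. The star strand miR-141*, not on the list, was above the limit on every array of both times. Its mean was 5.57 at 0 h and 5.33 at 5 h, and it did not pass (−0.24, limma adjusted p = 0.576).

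The labelled cell type was checked against its markers. All 9 probe sets of the fibroblast list, among them miR-199a, miR-199b, miR-214, miR-143 and miR-145, were above the limit on every array of every time point. The summed linear value of the epithelial list ranged from 800 to 875 over the 0 h arrays, from 69.3 to 91.1 over the 2 h arrays, from 24.3 to 25.9 over the 5 h arrays and from 23.9 to 28.1 over the 10 h arrays. That of the fibroblast list ranged from 72000 to 72100 before treatment and from 70500 to 72700 after 5 h. At 0 h 3 of the 7 epithelial miRNAs were above the limit on at least 1 array, and at 5 h none. Whether other cells or RNA in the 0 h samples had a part in these falls was not tested, and in bulk RNA fewer cells of a type and less RNA per cell cannot be told apart. Of the muscle, neuronal, blood cell, pluripotent cell and pancreas lists, with 4, 4, 6, 9 and 4 members, none had a member that was higher or lower at 5 h, and miR-122, the liver miRNA, was neither. Some of these miRNAs were also above the limit on every array of both times. They were miR-206 of the muscle list, miR-9 and miR-128 of the neuronal list, and miR-216b and miR-217 of the pancreas list.

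**Figure D2:**
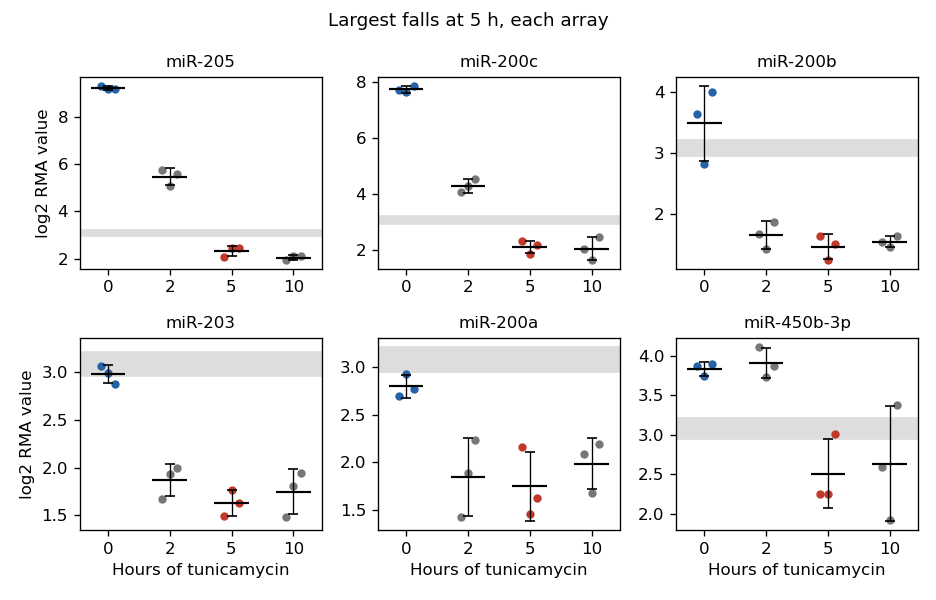
Levels of 6 of the largest falls on each array (log2 RMA value, vertical axis) at 0, 2, 5 and 10 h of tunicamycin (horizontal axis), with the mean as a bar, the SD over 3 arrays as whiskers, 0 h in blue, 5 h in red and the range of the background limits as a grey band. MiR-205 and miR-200c were at intermediate levels at 2 h, whereas miR-450b-3p was near its 0 h level at 2 h.

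A pair of X-linked clusters, named here after miR-503 and miR-106a, each held 2 miRNAs that fell, of 9 and 5 mature probe sets. Of all miRNAs 4.04% were lower, but the clusters are described because 2 members of each passed, so the counts do not test the clusters. MiR-450b-3p, from the miR-503 cluster, was at 3.87, 3.74 and 3.89 at 0 h and at 2.25, 2.25 and 3.01 at 5 h. At 2 h it was at 4.11, 3.73 and 3.87, and from 2 h to 5 h it fell by at least 1.76-fold (fitted difference −1.40, SE 0.33, limma adjusted p = 0.00921). The fall from 0 h was at least 1.67-fold (difference −1.33, SE 0.33, limma adjusted p = 0.0203), but the call was lost without the first or the third 0 h array or the first or the second 5 h array (limma adjusted p between 0.0585 and 0.0910). MiR-503 of the same cluster, which in other cells represses cyclins of the G1 phase, went from 7.63, 7.61 and 7.74 to 7.32, 7.11 and 7.21. Its arrays did not overlap (difference −0.44, SE 0.10, limma adjusted p = 0.0161), the call was lost without the third 0 h or the second 5 h array (0.0633 and 0.0762), and with each array shifted to 1 median it was also lost (0.0936). From 5 h to 10 h miR-503 dropped by a further 0.96 (SE 0.10, limma adjusted p = 2.48e-05). The list for this cluster also has 9 members, with both miR-450a strands in place of miR-503* and miR-322*. Of these the other 7 did not pass, among them miR-322 (−0.30, limma adjusted p = 0.123) and miR-351 (−0.14, limma adjusted p = 0.263). MiR-503*, not on the list, was above the limit on every 0 h array and on no 5 h array, and did not pass (−0.61, limma adjusted p = 0.263).

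From the miR-106a cluster, a paralogue of the miR-17 to miR-92a cluster, miR-20b and miR-106a were lower. Both are close in sequence to the brighter miR-17 (−0.10, limma adjusted p = 0.0666), from which the arrays may not separate them. MiR-20b was at 11.60, 11.63 and 11.57 at 0 h and at 11.31, 11.27 and 11.42 at 5 h (difference −0.27, SE 0.05, limma adjusted p = 0.00611), and miR-106a differed by −0.17 (SE 0.04, limma adjusted p = 0.0160). The groups did not overlap for miR-20b. MiR-363, miR-18b and miR-20b* of the cluster did not pass, and miR-20b* (+0.27, limma adjusted p = 0.226) was below the limit on every array of both times. MiR-106a was lost without the second 0 h array or the first or second 5 h array (limma adjusted p between 0.0621 and 0.0773), and with each array shifted to 1 median neither passed (0.0936 for miR-20b and 0.231 for miR-106a). Of the 6 listed members of the miR-17 to miR-92a cluster, miR-19b alone passed (−0.22, limma adjusted p = 0.0398), and with the array number as a block it did not (0.0659). MiR-19b has 2 loci in RefSeq, on chromosomes 14 and X, so its fall cannot be assigned to either.

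MiR-10b, cut from a transcript within the Hoxd gene cluster, fell on both strands. The guide was at 11.35, 11.30 and 11.26 at 0 h, at 11.56, 11.72 and 11.72 at 2 h and at 10.98, 11.02 and 10.99 at 5 h. It was above its 0 h level at 2 h and below it at 5 h, so that the drop from 2 h to 5 h of 0.67 (SE 0.05, limma adjusted p = 2.95e-07) was larger than the difference of −0.31 from 0 h (SE 0.05, limma adjusted p = 8.72e-04). The star strand miR-10b* went from 7.37, 7.34 and 7.49 to 6.86, 6.75 and 7.01, again without overlap (difference −0.53, SE 0.11, limma adjusted p = 0.00757). Of the 4 members of the family of miR-10 and miR-196, miR-10a (−0.10), miR-196a (+0.02) and miR-196b (+0.05) did not pass.

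Of the 9 fibroblast probe sets, 4 were lower and 1 was higher, against 4.04% and 4.32% of all miRNAs. The list took in the star strand miR-199b* but no other star strand, and of those left out miR-22* was higher and miR-214* lower. The differences within the list were small, with a median of −0.12 and a range of −0.43 to +0.24, of which the low end is miR-199b*. MiR-199b*, cut from a transcript antisense to Dnm1, went from 10.30, 10.26 and 10.16 to 9.81, 9.71 and 9.91 (difference −0.43, SE 0.06, limma adjusted p = 4.05e-04) without overlap. MiR-199b (−0.12, limma adjusted p = 0.0188) and miR-199a-3p (−0.12, limma adjusted p = 0.0193) have 1 and the same sequence in RefSeq and cannot be counted as separate results. Neither passed with each array shifted to 1 median (limma adjusted p = 0.469 for both), and nor did miR-199a-5p with the array number as a block (−0.15, limma adjusted p = 0.0398 without the block and 0.0659 with it). MiR-145, known from smooth muscle and fibroblasts, was the member that was higher. It was at 13.23, 13.16 and 13.22 at 0 h and at 13.45, 13.46 and 13.43 at 5 h (difference +0.24, SE 0.03, limma adjusted p = 4.17e-05), and with each array shifted to 1 median it did not pass (0.119).

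MiR-1946a and miR-1946b rose most. Their sequences were annotated separately, on chromosomes 16 and 9, from 32267536 to 32267669 and from 21417888 to 21418020 by the annotation of the array, for which the sources used here give no genome build. MiR-1946a was not among the miRNAs matched to a sequence. Whether both probe sets read separate RNAs was not tested, so their rises may not be separate results. MiR-1946a was at 7.44, 7.52 and 7.55 at 0 h and at 8.61, 8.60 and 8.66 at 5 h, a rise of 2.17-fold (log2 difference +1.12, SE 0.07, limma adjusted p = 6.01e-08). MiR-1946b went from 7.55, 7.51 and 7.76 to 8.63, 8.75 and 8.68, a rise of 2.12-fold (log2 difference +1.08, SE 0.09, limma adjusted p = 9.31e-07). Both peaked at 5 h. From 2 h to 5 h they increased by 0.76 and 0.68 (limma adjusted p = 3.98e-06 and 8.22e-05), and from 5 h to 10 h they dropped by 0.83 and 0.70 (limma adjusted p = 4.96e-06 and 1.44e-04). The 4 hairpin probe sets of the pair lay at mean levels of 2.04 to 2.78 at 0 h and 2.43 to 3.07 at 5 h, near or below the limit, and gave no usable reading of the precursors.

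MiR-27a*, the star strand of the hairpin in the miR-23a/27a/24-2 cluster (chromosome 8, 86732571 to 86732657 in the array annotation), had the next largest rise among the miRNAs above the limit on every array of both times. It was at 8.01, 8.03 and 8.21 at 0 h, at 8.18, 8.08 and 8.23 at 2 h, at 9.06, 9.04 and 8.88 at 5 h and at 8.70, 8.57 and 8.71 at 10 h. All 5 h arrays were above those of the other 3 time points. The rise from 0 h was 1.88-fold (log2 difference +0.91, SE 0.08, limma adjusted p = 2.11e-06), nearly all of it after 2 h (+0.83, SE 0.08, limma adjusted p = 3.98e-06), and by 10 h the level had dropped by 0.33 (SE 0.08, limma adjusted p = 0.0265).

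Several bright miRNAs rose by a smaller amount. MiR-455, which lies in an intron of the collagen gene Col27a1, was at 9.18, 8.78 and 9.08 at 0 h and at 9.70, 9.75 and 9.43 at 5 h (1.53-fold, log2 difference +0.61, SE 0.13, limma adjusted p = 0.00700). MiR-1224, a mirtron that splicing rather than Drosha frees, went from 8.85, 8.93 and 8.83 to 9.31, 9.39 and 9.42 (1.42-fold, log2 difference +0.50, SE 0.09, limma adjusted p = 0.00153). MiR-720, which in human cells is a piece of a transfer RNA, went from 7.66, 7.43 and 7.59 to 8.10, 8.17 and 8.04 (1.46-fold, log2 difference +0.55, SE 0.09, limma adjusted p = 9.63e-04). The 5 h arrays did not overlap the 0 h arrays for any of these. At 2 h miR-720 was at 8.07, 8.10 and 7.99 (5 h minus 2 h +0.05, SE 0.09, limma adjusted p = 0.822), whereas miR-1224 rose after 2 h (+0.41, SE 0.09, limma adjusted p = 0.00400). MiR-1196 (+0.47, SE 0.09, limma adjusted p = 0.00475) and miR-2132 (+0.37, SE 0.05, limma adjusted p = 1.72e-04) also rose. Of 118 miRNAs with a number of 1000 or higher, which were annotated late and often from few reads, 8 were higher and 2 lower, beside 4.32% and 4.04% of all miRNAs, with a median difference of +0.11.

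MiR-1187 and miR-146a were also higher at 5 h. MiR-1187 was at 5.40, 5.66 and 5.64 at 0 h, at 4.93, 5.25 and 4.72 at 2 h and at 6.08, 6.54 and 6.29 at 5 h. It was thus lowest at 2 h and highest at 5 h, with a difference of +1.34 between these (SE 0.18, limma adjusted p = 1.22e-04) and of +0.73 from 0 h (SE 0.18, limma adjusted p = 0.0223). The call against 0 h was lost without the first 0 h array (0.107) or the second 5 h array (0.0941), and the later difference of −0.58 between 10 h and 5 h did not pass (0.0922). MiR-146a, a target and brake of NF-κB signalling, was at 2.48, 1.93 and 2.07 at 0 h and at 3.05, 2.74 and 3.56 at 5 h. The third 5 h array alone was above the limit, which bounds the rise at only 1.02-fold or more (fitted difference +0.95, SE 0.22, limma adjusted p = 0.0160, and 0.0556 without the second 0 h array). At 10 h no array was above the limit, and the fall from 5 h is bounded at 1.02-fold or more (fitted difference −1.22, SE 0.22, limma adjusted p = 0.00395). MiR-146b (−0.15) and miR-155 (+0.09), which NF-κB also induces in immune cells, did not pass.

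**Figure D3:**
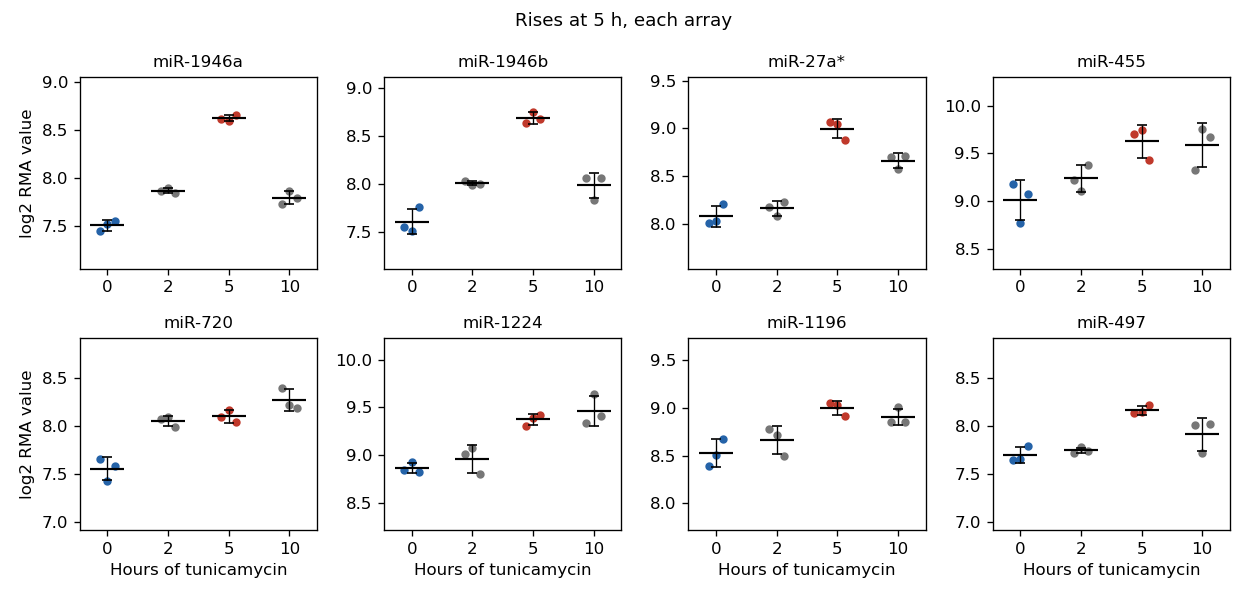
Levels of 8 miRNAs that were higher at 5 h on each array (log2 RMA value, vertical axis) at 0, 2, 5 and 10 h of tunicamycin (horizontal axis), with the mean as a bar, the SD over 3 arrays as whiskers, 0 h in blue and 5 h in red. The 5 h arrays lie above the 0 h arrays in each panel, and miR-1946a and miR-1946b are highest at 5 h.

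Of 121 star strands, 8 were higher and 5 lower, shares near the 4.32% and 4.04% of all miRNAs, with a median difference of 0.03. In the miR-23/27/24 clusters 3 of 4 star strands were higher, against 4.32% of all miRNAs, namely miR-27a*, miR-27b* (+0.52, SE 0.12, limma adjusted p = 0.0187) and miR-24-2* (+0.22, SE 0.06, limma adjusted p = 0.0276), while miR-24-1* differed by +0.04. Of the 5 guides miR-23b was higher (+0.11, limma adjusted p = 0.0193), a call that was lost with each array shifted to 1 median (0.693), with quantile normalization (0.561) and without the second 0 h, the first 5 h or the second 5 h array (0.0762 to 0.0934), and miR-27a (+0.06), miR-27b (+0.05), miR-23a (+0.03) and miR-24 (+0.03) did not pass. MiR-27b* was at 7.60, 7.12 and 7.35 at 0 h, at 7.99, 7.94 and 7.69 at 5 h and back at 7.18, 7.18 and 7.34 at 10 h, a drop of 0.64 from 5 h (SE 0.12, limma adjusted p = 0.00546). With each array shifted to 1 median, the number of these star strands that passed was 1 rather than 3, and without the second 0 h, the first 5 h or the second 5 h array it was also 1. In each of these settings miR-27a* was the one that passed.

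Elsewhere miR-30b* (+0.56, SE 0.15, limma adjusted p = 0.0261), miR-22* (+0.41, SE 0.09, limma adjusted p = 0.0138), miR-193* (+0.40, SE 0.08, limma adjusted p = 0.00898) and miR-29b* (+0.36, SE 0.10, limma adjusted p = 0.0315) were higher. The strands without an asterisk did not pass, at −0.06 for miR-30b, 0.00 for miR-22, −0.23 for miR-193 and −0.18 for miR-29b. At 0 h miR-193* (mean 9.48) was brighter than miR-193 (8.53), and miR-9* (6.66) was brighter than miR-9 (4.06). In these hairpins the asterisk thus does not mark the dimmer strand. MiR-455* rose with its partner strand (+0.81, SE 0.23, limma adjusted p = 0.0403). MiR-214* (−0.25, SE 0.07, limma adjusted p = 0.0356) was lower while miR-214 (+0.09) did not pass, and miR-9* (−0.63, SE 0.17, limma adjusted p = 0.0286) was lower while miR-9 (−0.18), near the limit, did not. With the array number as a block, miR-455* (limma adjusted p = 0.0630), miR-29b* (0.0618), miR-214* (0.0629) and miR-9* (0.0511) no longer passed. With the second 5 h array left out, 2 star strands were higher and 2 lower, and with each array shifted to 1 median 1 and 3. The difference between the strands of a hairpin was not tested.

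**Figure D4:**
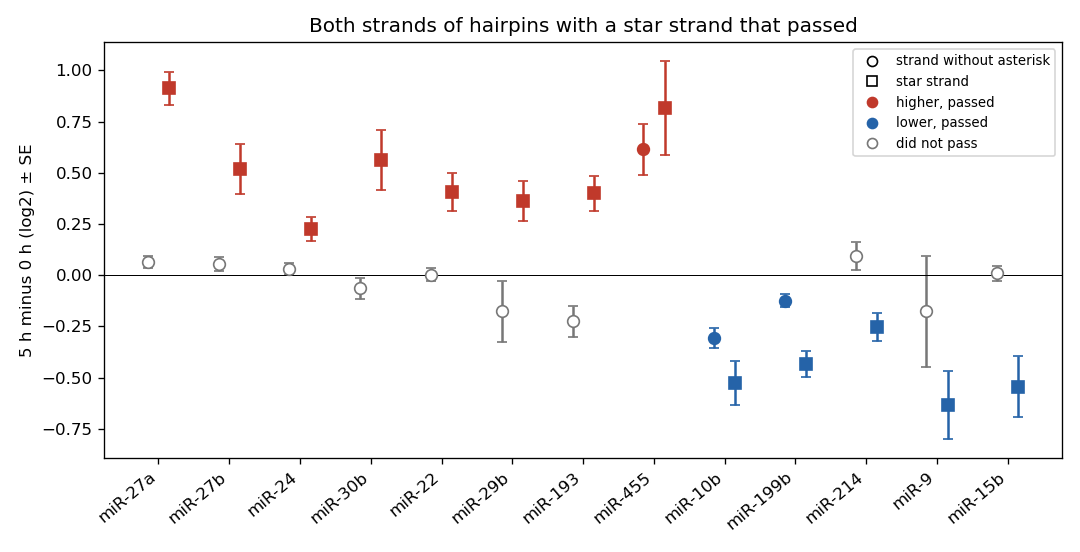
Difference between 5 h and 0 h (log2 ± SE, vertical axis) for the strand without an asterisk (circle) and the star strand (square) of the hairpins whose star strand passed the test (horizontal axis), filled red or blue where the strand was higher or lower and open where it did not pass. MiR-455, miR-10b and miR-199b passed on both strands in 1 direction.

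Members that share a seed did not always move together. Among the 42 matched miRNAs that passed there were 36 seeds, of which 6 were shared by 2 members, and in miR-708 and miR-28 alone the 2 members moved in opposite directions. MiR-195 and miR-497, which lie in 1 cluster on chromosome 11 and restrain the cell cycle, were both higher. MiR-497 was at 7.64, 7.65 and 7.79 at 0 h and at 8.13, 8.14 and 8.21 at 5 h (difference +0.47, SE 0.09, limma adjusted p = 0.00574), and miR-195 went from 10.15, 10.16 and 10.22 to 10.55, 10.48 and 10.39 (difference +0.29, SE 0.05, limma adjusted p = 0.00223). Neither overlapped its 0 h arrays, and with each array shifted to 1 median miR-195 did not pass (0.130) but miR-497 did (0.0339). Their seed-mates from other clusters were at −0.22 for miR-15a (SE 0.07, limma adjusted p = 0.0553), −0.09 for miR-16 and +0.01 for miR-15b, and did not pass.

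MiR-708 and miR-28 share a seed and lie in introns of Tenm4 and Lpp. MiR-708, which the UPR factor CHOP induces, was at 10.10, 10.09 and 10.11 at 0 h and at 10.36, 10.44 and 10.26 at 5 h (difference +0.26, SE 0.06, limma adjusted p = 0.0129). MiR-28 was at 10.64, 10.63 and 10.59 at 0 h and at 10.40, 10.30 and 10.37 at 5 h (difference −0.26, SE 0.04, limma adjusted p = 0.00122). Thus 1 rose and the other fell by a similar amount, and in neither did the arrays overlap. Without the second 5 h array miR-708 did not pass (0.0714), and with each array shifted to 1 median neither did (0.176 for miR-708 and 0.0962 for miR-28).

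The miRNAs with known ties to the UPR were too few for the number that passed at 5 h to be set against all miRNAs. Of 5 miRNAs examined for induction in the UPR, miR-708, miR-217, miR-216b, miR-211 and miR-204, only miR-708 was higher, beside 4.32% of all miRNAs. MiR-217 was at 4.29, 4.38 and 4.16 at 0 h and at 4.76, 4.52 and 4.87 at 5 h (difference +0.44, SE 0.20, limma adjusted p = 0.245), and miR-216b at 5.28, 5.10 and 4.85 and at 5.53, 5.50 and 5.37 (difference +0.39, SE 0.16, limma adjusted p = 0.168). In both the 5 h arrays lay above the 0 h arrays, as in 21.5% of all miRNAs in one direction or the other, without passing the test. MiR-211 (+0.30, SE 0.38, limma adjusted p = 0.766) exceeded the limit on 1 array at 5 h, and miR-204 (−0.05, SE 0.15, limma adjusted p = 0.917), which shares its seed, on none. By 10 h miR-708 had gained a further 0.81 (SE 0.06, limma adjusted p = 4.57e-07), miR-217 1.89 and miR-216b 1.51 (limma adjusted p = 2.34e-05 for both), whereas 40 of all 717 (5.58%) differed between 5 h and 10 h and 77 (10.7%) between 2 h and 5 h.

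Of the 3 miRNAs of the cluster of miR-106b, miR-93 and miR-25, which PERK signalling represses, none passed, while 4.04% of all miRNAs were lower. The differences were −0.06 for miR-106b (SE 0.05), −0.06 for miR-93 (SE 0.04) and −0.09 for miR-25 (SE 0.05). Of 4 miRNAs whose precursors IRE1 cuts, none passed, again too few to set against that share. They were at −0.10 for miR-17 (SE 0.03, limma adjusted p = 0.0666), −0.04 for miR-34a (SE 0.05), −0.11 for miR-96 (SE 0.32) and −0.01 for miR-125b-5p (SE 0.02). Let-7a, often used as a steady reference, differed by −0.04 (SE 0.03).

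In the other families few members passed. Of 9 let-7 family members, let-7d (+0.14, limma adjusted p = 0.0160) and let-7e (+0.16, limma adjusted p = 0.04996) were higher, against 4.32% of all miRNAs. Let-7e was lost with the array number as a block (0.0814), and with each array shifted to 1 median neither passed (0.585 and 0.590). MiR-132 (+0.28, limma adjusted p = 0.0187, and 0.224 with each array shifted to 1 median), which CREB induces in neurons, was higher and miR-212 of the same hairpin cluster (−0.12) was not. Of 54 members of the repeat-rich families in an intron of Sfmbt2, 3 were lower by 0.25 to 0.33, a share near the 4.04% of all miRNAs, and none was higher, with a median of −0.11. These were miR-466b-3p, miR-466b-3-3p and miR-466e-3p, whose near-identical sequences the arrays may not separate, and miR-466e-3p was lost with the array number as a block (0.0659). With each array shifted to 1 median none of the 3 passed (limma adjusted p = 0.130, 0.0962 and 0.231). None of the groups of miR-34, of miR-181, of miR-221 with miR-222, and of miR-99, miR-100 and miR-125, with 4, 4, 2 and 5 members, had a member that passed.

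Further miRNAs passed, most of them with small differences. MiR-125b-3p (+0.42, limma adjusted p = 0.00859), the rarer strand of a hairpin whose other strand miR-125b-5p did not pass, was higher, as were miR-709 (+0.24, limma adjusted p = 4.69e-04), miR-3473 (+0.48, limma adjusted p = 0.0490), miR-1931 (+0.43, limma adjusted p = 0.0366), miR-762 (+0.39, limma adjusted p = 0.0417) and the imprinted miR-127 (+0.33, limma adjusted p = 0.0490). MiR-149 (−0.29, limma adjusted p = 0.00635), miR-2141 (−0.43, limma adjusted p = 0.0220), miR-324-3p (−0.36, limma adjusted p = 0.0322), miR-29a (−0.14, limma adjusted p = 0.0251), a repressor of collagens, and miR-30c (−0.12, limma adjusted p = 0.0426) were lower. MiR-1905 (−0.60, limma adjusted p = 0.0358) and miR-15b* (−0.54, limma adjusted p = 0.0366) were below the limit on every array of both times, so that no fold is given. With the array number as a block, miR-3473 (0.0816), miR-1931 (0.0659), miR-762 (0.0725), miR-127 (0.0775), miR-29a (0.0511), miR-30c (0.0863) and miR-1905 (0.0562) no longer passed. Of all these, miR-2141 alone passed after shifting each array to 1 median (0.0141), and it was lost without the first or the second array of either time (limma adjusted p between 0.0743 and 0.0922).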

How the data were processed

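Total RNA was biotin-labelled and hybridised to Affymetrix GeneChip miRNA arrays. Per the submitters' processing notes the authors used RMA, and the deposited values are log2 levels of each probe set on each array. The sources used here give neither the array version nor the genome build of its annotation. A further deposited table holds the same log2 values (largest difference 0), the array annotation, and the authors' means, ratios, fold changes, p-values and F statistics, which were not used.

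For the 717 mature probe sets 1 limma fit (version 3.58.1, R 4.3.3) took in the 12 arrays, with the 4 times as a factor, eBayes with a trend, two-sided tests and Benjamini-Hochberg adjustment at 0.05. The fit was tested on simulated data with known changes. An exact permutation test of 1 miRNA, 3 arrays against 3, has 0.1 as its smallest p. The number of arrays limits the precision, and the median SE of a difference was 0.156. Where 1 time was at background, the fold is a lower bound, the brighter mean over the higher of the dimmer arrays' limits and values. Named miRNAs were the 15 largest rises and 15 largest falls among called, non-overlapping miRNAs, the miRNAs that the study names for the UPR, and members of 31 lists. The members and lists were chosen with earlier results of these data known. The 24 alternatives covered scaling, filters, which arrays and features were fitted, the prior variance, weights on arrays, the methods' t-test, a block for array number and each array left out. The main fit had no block. Deviations from the time means correlated between same-numbered 0 h and 5 h arrays, numbered in the sample titles, at 0.307, 0.601 and 0.192, so the blocked value is given where it changes a call. Differently numbered arrays gave −0.495 to 0.426, and the arrays numbered 1 and 3 correlated across numbers (0.382 and 0.426) more than within them, so the pairing is uncertain. Mature sequences came from RefSeq (GRCm38.p6), by exact name or by the current name of the strand.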

Additional observations from a re-analysis of the deposited data

Results flagged for a closer look

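Between 2 h and 5 h the fitted level of 4 named miRNAs differed by more than 1 on the log2 scale. MiR-205 differed by −3.12 (SE 0.22, limma adjusted p = 2.95e-07), miR-200c by −2.18 (SE 0.26, limma adjusted p = 3.18e-05), miR-450b-3p by −1.40 (SE 0.33, limma adjusted p = 0.00921) and miR-1187 by +1.34 (SE 0.18, limma adjusted p = 1.22e-04). The first 3 were below the background limit on every 5 h array, so that the falls are bounded at 5.18-fold, 2.32-fold and 1.76-fold or more. Between 5 h and 10 h miR-217 differed by +1.89 (SE 0.20) and miR-216b by +1.51 (SE 0.16), each at a limma adjusted p of 2.34e-05. MiR-146a gave a fitted difference of −1.22 (SE 0.22, limma adjusted p = 0.00395), but it was above the limit on 1 array at 5 h and on none at 10 h, which bounds the fall at only 1.02-fold or more. These contrasts share the 5 h arrays with the comparison against 0 h.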

How the results depend on the processing

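The counts of 31 higher and 29 lower became 11 and 11 with each array shifted to 1 median, 14 and 13 with the 0 h and 5 h arrays only, 19 and 13 with a constant prior variance, 19 and 12 on dropping the second arrays of both 0 h and 5 h, and 6 and 4 by the methods' t-test after Benjamini-Hochberg adjustment, which called 60 and 50 at an unadjusted p under 0.05. The filter to the brighter 50% gave 43 and 32, and array weights 45 and 37. Leaving out each array in turn gave 18 to 35 higher and 11 to 32 lower. With the array number as a replicate block, 24 were higher and 21 lower, and 15 of the 60 calls were lost, of which the values of those named appear beside their results. Quantile normalization gave 22 and 29. No called miRNA changed sign under any of the 24 alternatives. Of the 60 calls, 22 held with every array left out in turn, and 38 were lost on shifting each array to 1 median. The cause was not tested. The bounds on the fold fell to 55.1 for miR-205 and to 19.8 for miR-200c with a limit at 4 spreads, and rose to 88.5 and 31.8 at 2 spreads. Values below the limit, as for 276 miRNAs at both times, have no interpretable order.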
